A study of Mus musculus with 7 samples.

Results

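The lysosomal genes described here are 37 genes for the enzymes that digest lipids, sugar chains and proteins inside lysosomes and for the proteins of the lysosomal membrane, with the cathepsins left aside. They were taken from the table by gene symbol, from a list written with earlier results of these data known, and all 37 were present among its 23930 genes. The table holds RNA levels of 3 libraries from normocapnia, NC1 to NC3, and of 4 from hypercapnia, HC1 to HC4. They were made from cells that were sorted for Pax7-GFP from the digested hind leg muscles of mice. Littermates on the C57/B6 background, in which Pax7-CreERT2 turns on a ZsGreen reporter behind a stop cassette once tamoxifen is given, were moved at 12 weeks of age to room air or to air with raised CO2, stayed there for 4 weeks and were used at 16 weeks. The labels' strain field differs by library, from C57BL/6 for NC1 to C57BL/12 for HC4, while their growth protocol writes C57/B6 for all. All animals of both groups received tamoxifen, and according to the study's methods all had their muscle injured with cardiotoxin before the sort, an injury that the labels do not mention. The methods place the collection 3 days after the injury, whereas a time of 40 hours stands in the title of the table, and the labels explain neither.

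The reporter marks every cell in which Pax7 was active when tamoxifen was given, and the mark passes to its progeny, so green cells need not still make Pax7. Pax7 itself, the transcription factor that marks muscle stem cells (satellite cells), ran from 4.34 to 268 RPM (reads scaled to a common library total) in normocapnia and from 20.1 to 79.5 RPM in hypercapnia. Among 12 satellite cell markers 0 were called between the groups, and their summed level was 1008 to 3660 RPM in normocapnia and 1086 to 1850 RPM in hypercapnia. Sdc4 and Cxcr4 made up most of the sum in NC3, with 441 and 465 RPM. Other markers varied more than the sum. In NC1, NC2 and NC3, Cdh15 was at 310, 8.12 and 6.54 RPM and Itga7 at 162, 12.2 and 3.58 RPM. The 16 macrophage markers summed to 13861 (NC1) to 37679 RPM (NC3) in normocapnia and 20994 to 26004 RPM in hypercapnia, so that each library sorted as Pax7-GFP cells also carried macrophage transcripts. Lyz2 alone made 8354 RPM of the sum in NC1 and 29108 RPM in NC3. Since these are bulk samples, fewer cells of a type and less RNA per cell cannot be told apart. Library totals ran from 14527445 to 23388710 reads, and 3 reads amounted to 0.128 to 0.207 RPM. Each gene was read through the panel's own amplicon and not scaled to length, so a level is compared between libraries and not between genes. Nothing in the labels says whether each library came from a separate animal, so the p-values below measure the spread between these libraries only.

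Lysosomes break down what reaches them by endocytosis and autophagy. Their soluble hydrolases are made in the endoplasmic reticulum, tagged with mannose 6-phosphate and carried to an acidic lumen, where each acts on a particular bond, and inherited loss of a single one causes a storage disease. The membrane proteins protect the limiting membrane, pump protons and let the products out. In injured muscle, macrophages that clear debris are rich in lysosomes, and satellite cells depend on autophagy as they leave quiescence. Many lysosomal genes carry a short motif near their start that is bound by the transcription factor TFEB and its relatives.

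Values of single libraries are given in the order of their numbers. A gene was called when its log2(RPM + 1) differed between the groups with an unadjusted limma p under 0.05 and a fold change above 1.5, the thresholds of the study. Of the 37 genes, 5 were called higher in hypercapnia, namely Hexa, Psap, Gusb, Hyal1 and Laptm4a, and 1 was called lower, Ids. Over all genes the same call was made higher for 343 (1.43%) and lower for 272 (1.14%), and among the 12504 genes whose mean reached 1 RPM for 332 (2.66%) and 262 (2.1%). Of the lysosomal genes, 36 reached that mean, and the remaining one, Idua, lay under 3 reads in all libraries. No gene passed Benjamini-Hochberg adjustment over all 23930 genes by limma (lowest adjusted p 0.351), where 1114 had an unadjusted p under 0.05, 7 of the 37 among them (the 6 called genes and Arsa). By edgeR on recovered reads, without a filter, 0 genes passed and 1049 had an unadjusted p under 0.05, and by DESeq2 29 genes passed, 0 of them among the 37. Without any model, the libraries of the groups did not overlap for 5 genes with hypercapnia higher (Hexa, Psap, Arsa, Gusb and Hyal1) and for Ids with hypercapnia lower, beside 511 (4.09%) and 454 (3.63%) of the genes at 1 RPM or more.

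In hypercapnia 29 of the 37 genes were higher and 8 lower, with a median log2 fold change of 0.38 and a range from -0.67 to 1.64. The median over genes at 1 RPM or more was 0.16, and 62.1% of them were higher in hypercapnia. Under median-of-ratios scaling, which takes out a shift common to most genes, Galc, Fuca1 and Ppt1 turned lower, the lysosomal median was 0.25 and that of the genes at 1 RPM or more 0.044, and under quantile normalization, where Aga turned lower and Lamp2 higher, the medians were 0.36 and -0.0064. Without NC1 the order turned round, with 0.21 for the lysosomal genes and 0.36 for those at 1 RPM or more. The plot of fold changes by role shows where the called genes lie.

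**Figure D1:**
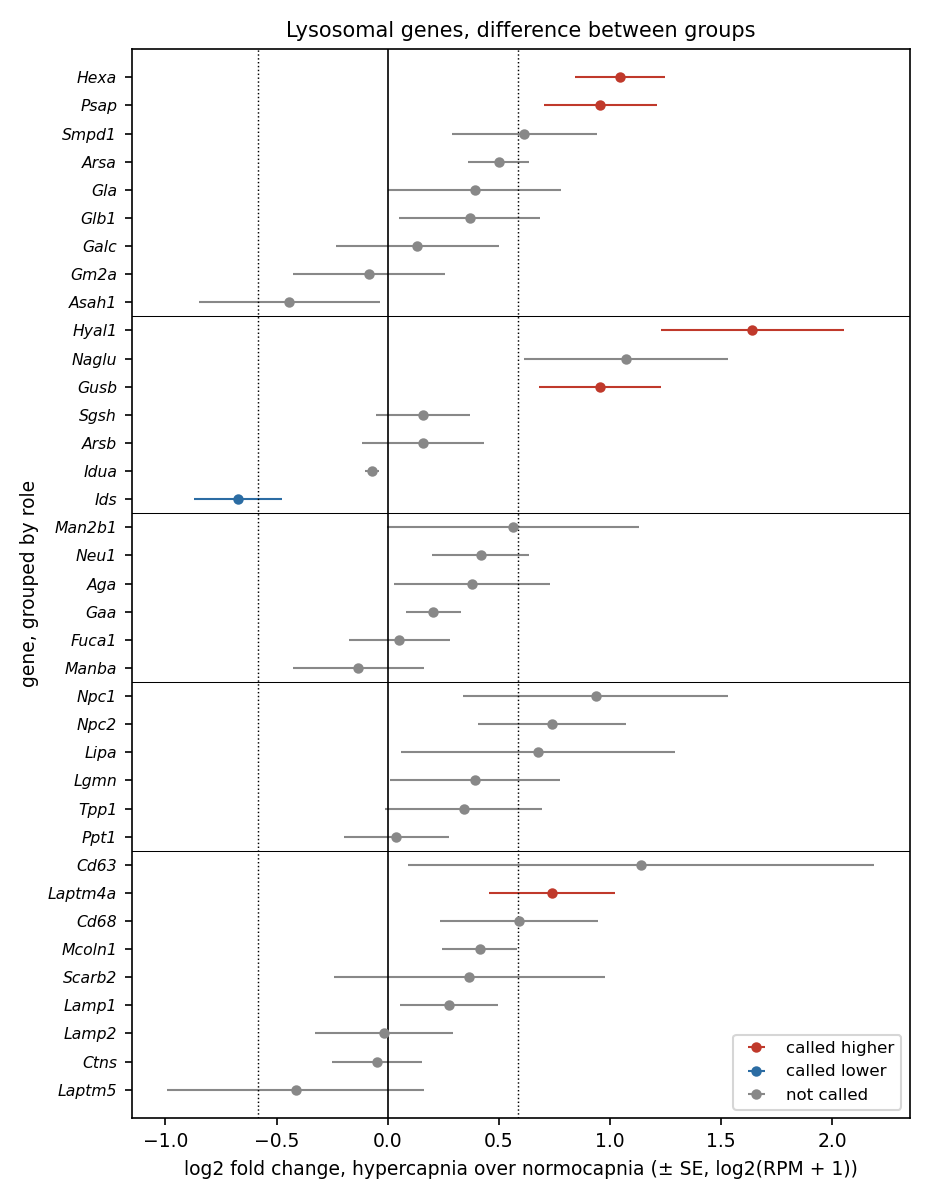
Log2 fold change of each of the 37 genes on the log2(RPM + 1) scale, hypercapnia over normocapnia, with bars of 1 standard error and dotted lines at a fold of 1.5 in either direction. Red points are the 5 genes called higher, the blue point is Ids, and grey points were not called. Bars are widest for Cd63, Lipa, Scarb2 and Npc1, and 29 points lie to the right of 0.

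In each library the 37 genes together took 1.15% (NC1), 1.63% (NC2) and 1.77% (NC3) of the reads in normocapnia, and 2.10% (HC1), 2.28% (HC2), 1.51% (HC3) and 1.65% (HC4) in hypercapnia. The groups overlapped, since NC2 lay above HC3 and NC3 above both HC3 and HC4. Much of the NC3 share came from Laptm5 and Cd68, which are also macrophage genes. Without these 2 genes the sum was 9239, 12805 and 8187 RPM in normocapnia and 16738, 18004, 11575 and 12902 RPM in hypercapnia, where NC2 lay above HC3 but below the other 3 hypercapnia libraries.

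The libraries of a group were not alike. NC1 was the lowest of all 7 libraries for 18 of the 37 genes and NC3 for 13, while HC2 was the highest for 16 and HC1 for 8. The 18 include Idua, where NC1 was tied at 0 with all hypercapnia libraries. NC2 stood closest to the hypercapnia libraries and lay within or above their range for 27 genes, as against 10 for which it lay under all of them. NC1 was under all hypercapnia libraries for 25 genes and NC3 for 20. Within hypercapnia, HC1 and HC2 were both above HC3 and HC4 for 33 of the 37 genes and both below them for 0. These splits are seen as blocks of color in the heat map of levels.

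**Figure D2:**
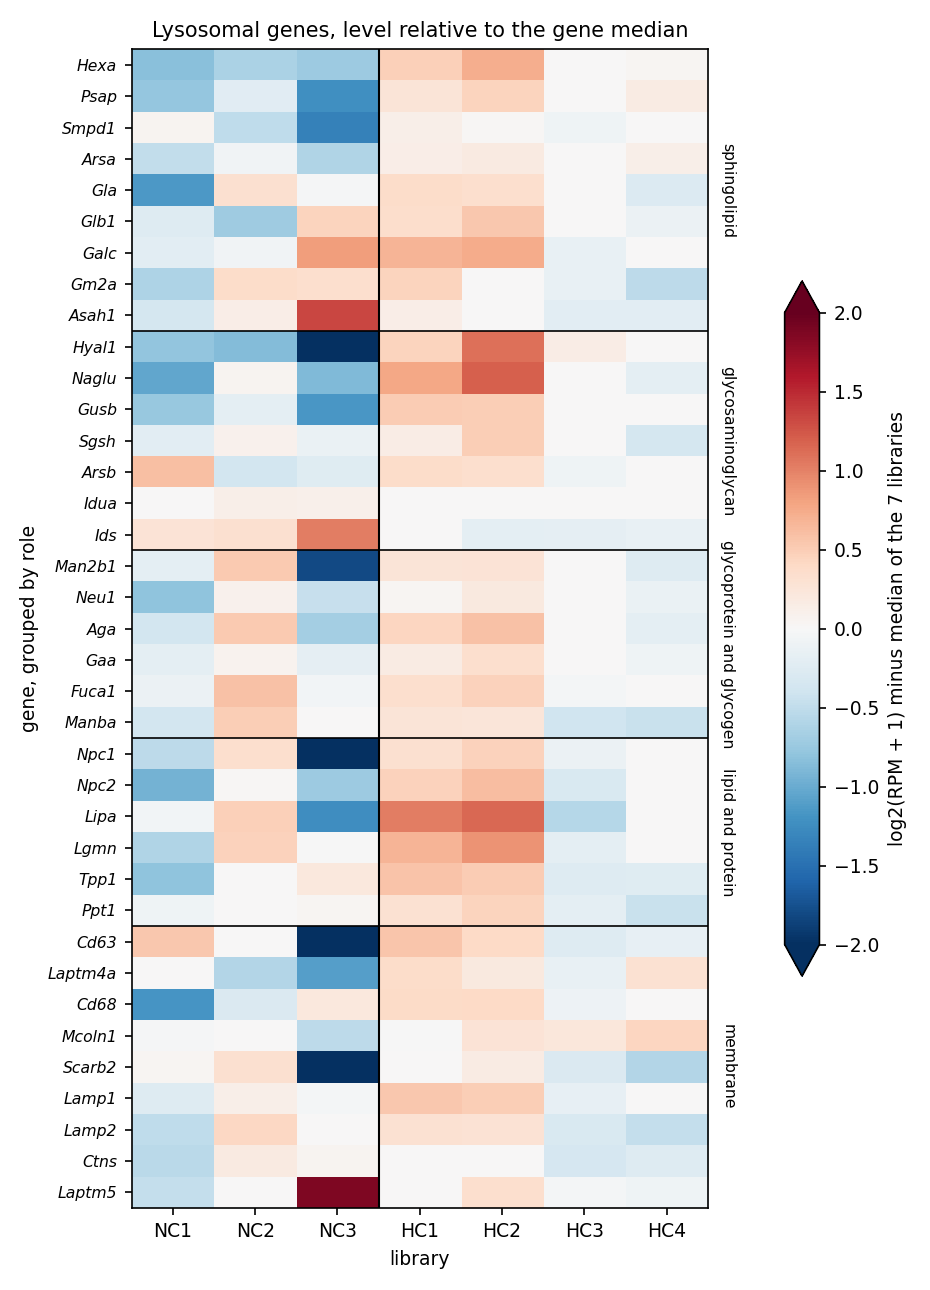
Log2(RPM + 1) of each gene (rows, grouped by role) in each library (columns) minus the gene's median over the 7 libraries, with the color limited to 2 units in either direction. The deepest blue cells lie in NC1 and NC3, and HC1 and HC2 are red or near white for nearly every gene, while NC3 is far above the rest for Laptm5 and Asah1 and far below for Cd63, Npc1, Scarb2, Hyal1 and Man2b1.

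The same split of the hypercapnia libraries was seen in several other transcripts. Summed endothelial markers were 65.1 and 51.6 RPM in HC1 and HC2 against 545 and 417 RPM in HC3 and HC4, and summed fibroadipogenic markers 1450 and 1440 RPM against 2837 and 3469 RPM. Pax7 was at 21.5 and 20.1 RPM against 79.5 and 59.7 RPM. In the direction of the lysosomal genes, summed macrophage markers were 26004 and 22441 RPM in HC1 and HC2 against 20994 and 21567 RPM in HC3 and HC4. Of these, Adgre1 was at 392.2 and 429 RPM against 151 and 184 RPM, C1qb at 1028 and 1061 RPM against 271 and 422 RPM and Trem2 at 254 and 272.5 RPM against 120 and 100.3 RPM. Other markers of this list did not split so. Lyz2, the most abundant, was at 16728 and 13410 RPM against 14451 and 14393 RPM. Itgam was at 1391 and 1509 RPM against 1398 and 1461 RPM, and Cd163 at 338 and 356 RPM against 262 and 629 RPM. Xist, the RNA that coats an inactive X chromosome, divided the libraries of both groups. It stood at 701 and 619 RPM in NC1 and NC2 and at 445 and 475 RPM in HC1 and HC2, and at or under 3 reads in NC3, HC3 and HC4. The study used both sexes and the labels give none, so the 4 libraries with Xist and the 3 without are named here by that RNA alone. Among the 4 libraries with Xist, 34 of the 37 genes were higher in hypercapnia, with a median log2 difference of 0.43. Among the 3 libraries without it, where normocapnia is 1 library, 20 were higher, with a median of 0.14. The 2 differences had the same sign for 21 of the 37 genes, the 6 called genes among them. Whether the effect of hypercapnia differs between the libraries with and without Xist was not tested, and neither was the part of any of these transcripts in the split.

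**Figure D3:**
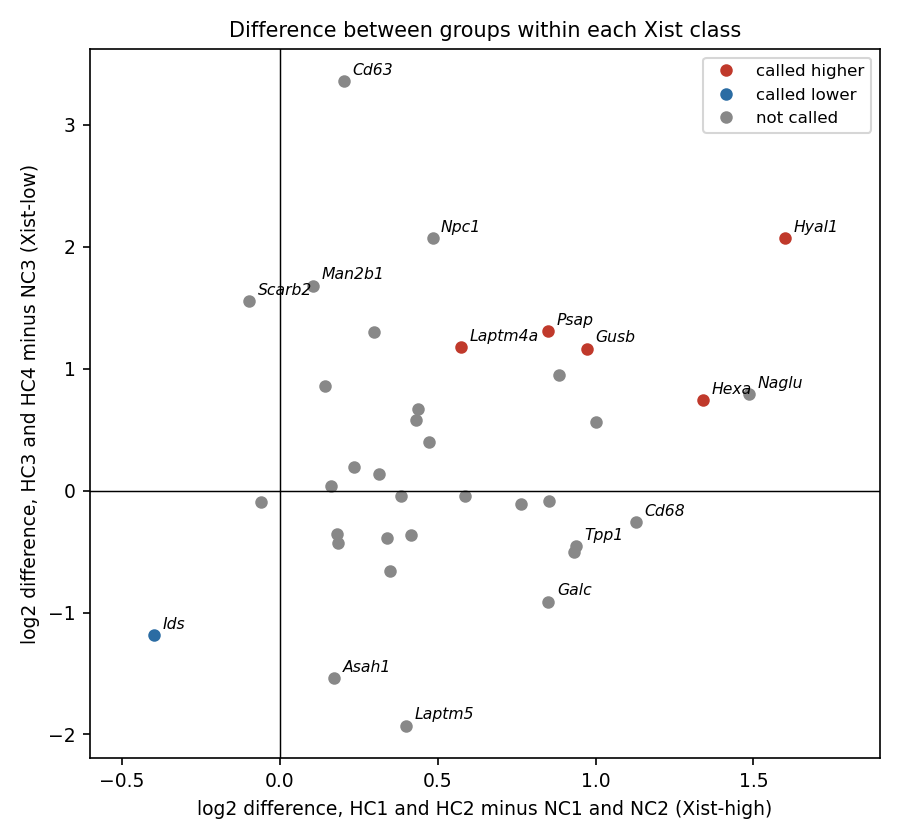
Each point is 1 of the 37 genes, with the difference in mean log2(RPM + 1) between hypercapnia and normocapnia in the libraries with Xist on the horizontal axis and in those without it on the vertical axis. Red and blue points, the genes called over all 7 libraries, lie where both differences have the same sign, while Laptm5, Asah1, Galc and Cd68 are higher in hypercapnia on the horizontal axis only.

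A stretch of 300 bases around the start of the gene, from 250 before to 50 after it, was given by RefSeq (GRCm38.p6) for 34 of the 37 genes, and Aga, Asah1 and Npc1 had no entry. The letters CACGTG, which read the same on both strands and form the core of the motif bound by TFEB, TFE3 and MITF, were found in 9 of these 34 (26.5%), beside 8.09% of the 27025 genes with a promoter and 11.2% of the 9523 among them whose mean reached 1 RPM. The longer GTCACGTG or its reverse complement CACGTGAC, which contains the first motif, was found in 8 of 34 (23.5%), beside 2.55% and 4.54%. A match in a window of this size is a description and not a site. For each of the 9 genes 1 match is shown on the strand of the gene with CACGTG in capitals, so that the flanking letters of the longer motif can be read in all but Gaa. It is the match nearest to the start, or for Lamp1 the one that holds the longer motif.
Naglu, chr11:101070014-101070033, plus strand: ttcaggtCACGTGgcccgag
Arsa, chr15:89477428-89477447, minus strand: tcagtgtCACGTGttgtctg
Mcoln1, chr8:3500467-3500486, plus strand: ccccgctCACGTGaccgcgg
Lgmn, chr12:102439129-102439148, minus strand: tgtctgtCACGTGgtccatt
Gla, chrX:134601187-134601206, minus strand: tctcggtCACGTGagcaact
Glb1, chr9:114401023-114401042, plus strand: tctgagtCACGTGgcctaca
Lamp1, chr8:13159126-13159145, plus strand: cgactggCACGTGaccacat
Gaa, chr11:119267816-119267835, plus strand: gtgcgatCACGTGtttgact
Sgsh, chr11:119355527-119355546, minus strand: tgccgtgCACGTGaccgtgg
Lamp1 held 4 matches in its window, Mcoln1 2 and Gla 2, and the distance from the nearest match to the start ran from 15 bases (Lamp1) to 194 bases (Gla). All 9 genes were higher in hypercapnia, by 0.16 (Sgsh) to 1.07 (Naglu) on the log2 scale, and 0 of them were called. Their median log2 fold change was 0.39. The 25 genes without the letters had a median of 0.37 and included all 6 called genes. No called gene had the letters in its window.

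The genes for breakdown of sphingolipids, the membrane lipids built on ceramide, held 2 of the called genes. Hexa encodes the alpha subunit of beta-hexosaminidase A, which removes the terminal sugar of GM2 ganglioside. It stood at 113, 130 and 122 RPM in normocapnia and at 283, 335, 202 and 208 RPM in hypercapnia. The 3 normocapnia libraries lay close together, and all 4 hypercapnia libraries were above them. Its log2 fold change was 1.04 ± 0.20 (SE), with a limma adjusted p of 0.650, and it was called under all 17 alternatives.

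Psap encodes prosaposin, which is cut into the saposins, small proteins that lift lipids out of the membrane for the hydrolases. Its level was 2536, 3715 and 1856 RPM in normocapnia, against 5171, 5912, 4343 and 4857 RPM in hypercapnia. Here too the groups were apart, with NC2 the nearest to hypercapnia. The log2 fold change of 0.96 ± 0.25 (SE; limma adjusted p = 0.836) was no longer called by edgeR (0.83 with and without a filter on low genes).

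Arsa, the sulfatase that acts on sulfatide, was at 29.3, 39.6 and 27.0 RPM in normocapnia and 45.8, 47.2, 41.7 and 45.4 RPM in hypercapnia. The groups did not overlap, but the log2 fold change of 0.50 ± 0.14 (SE; limma adjusted p = 0.877) was under the fold limit. Asah1, the acid ceramidase, differed the other way, with 375 RPM in NC3 against 117 and 163 RPM in NC1 and NC2 and 129 to 163 RPM in hypercapnia. Its log2 fold change of -0.44 was not called and became 0.036 without NC3. The remaining 5 genes, the sphingomyelinase Smpd1, the galactosidases Gla, Glb1 and Galc and the activator protein Gm2a, had log2 fold changes from -0.083 (Gm2a) to 0.62 (Smpd1), and 0 of them were called. Smpd1 became 0.24 without NC3, and Glb1 became 0.10 without NC2.

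The genes for breakdown of glycosaminoglycans, the long sugar chains of the extracellular matrix, held calls in both directions. Hyal1, a hyaluronidase that cuts hyaluronan, had the largest log2 fold change of the 37 genes, 1.64 ± 0.41 (SE; limma adjusted p = 0.827). It was measured at 6.74, 6.29 and 2.34 RPM in normocapnia and at 17.2, 27.4, 13.8 and 12.3 RPM in hypercapnia. Every hypercapnia library was above every normocapnia library, and the lowest value rested on 34 reads. By DESeq2 its adjusted p was 0.0691, and the gene was called under all 17 alternatives.

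Gusb, the beta-glucuronidase that takes glucuronic acid off the chain ends, was at 66.1, 97.9 and 49.8 RPM in normocapnia and at 160, 158, 112 and 113 RPM in hypercapnia. The groups were apart, NC2 again lying nearest to hypercapnia. The log2 fold change was 0.96 ± 0.27 (SE; limma adjusted p = 0.900), and the call was made under all 17 alternatives.

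Ids, the X-linked sulfatase that removes sulfate from iduronic acid in heparan and dermatan sulfate, was lower in hypercapnia. It stood at 81.8, 84.5 and 137 RPM in normocapnia, and at 67.3, 58.8, 59.3 and 60.3 RPM in hypercapnia. All 4 hypercapnia libraries were below the 3 normocapnia libraries and close to each other, while NC3 stood high. The log2 fold change was -0.67 ± 0.20 (SE; limma adjusted p = 0.909). Without NC3 it was -0.43, under the fold limit, and it also lost its call under median-of-ratios scaling (-0.82) and with the replicate number as a block (-0.66), where its unadjusted p was above 0.05. It was -0.40 in the libraries with Xist and -1.19 in those without.

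Naglu, which removes N-acetylglucosamine from heparan sulfate, had a log2 fold change of 1.07 ± 0.46 (SE) that was not called (limma adjusted p = 0.915). Its levels were 24.1, 52.5 and 26.9 RPM in normocapnia and 87.8, 118, 50.7 and 44.0 RPM in hypercapnia, and only NC2 reached into the hypercapnia range. Arsb and Sgsh, a pair of sulfatases, each differed by 0.16 on the log2 scale. Arsb became 0.46 without NC1 and -0.025 without NC2, and Sgsh became 0.016 without HC2. Idua, the iduronidase that works beside Ids, was listed at 0 to 0.086 RPM, under the value of 3 reads in all 7 libraries, and its difference was not detectable at this depth.

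**Figure D4:**
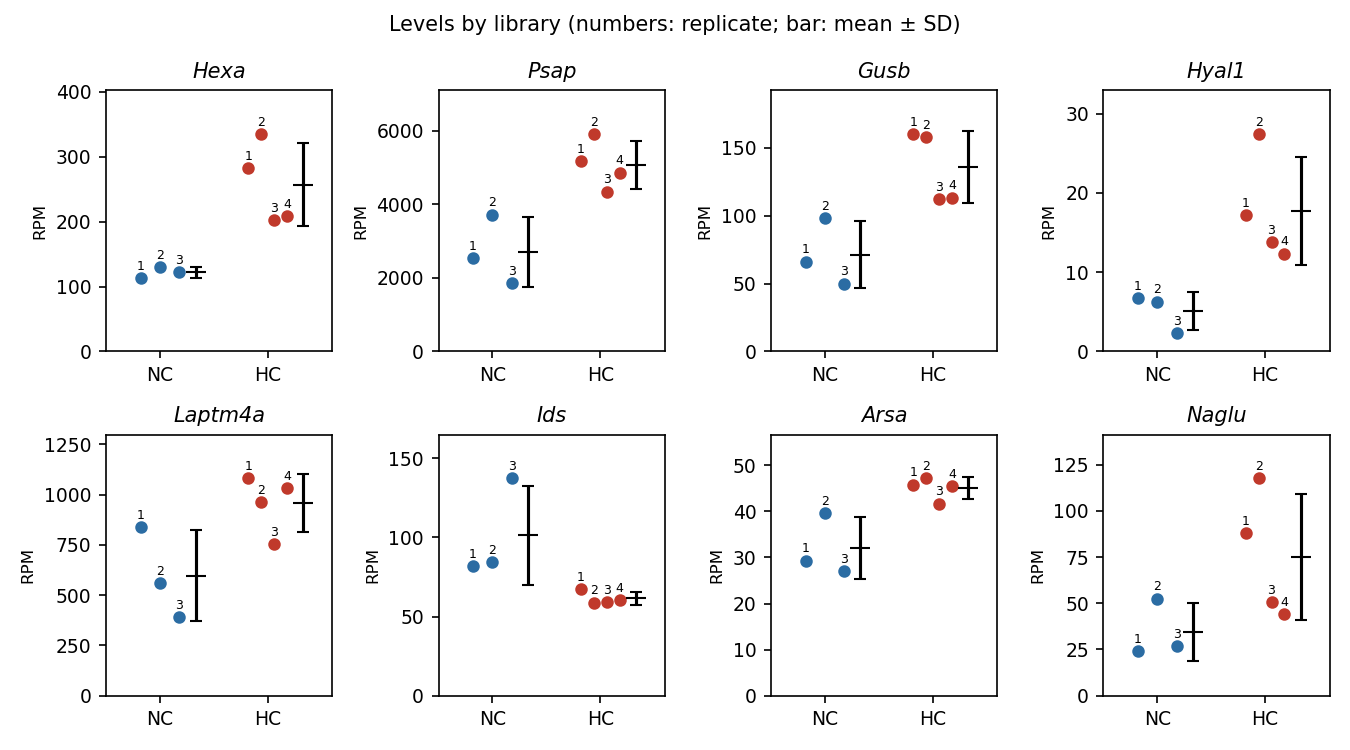
RPM in each library (points numbered by replicate) of the 6 called genes and of Arsa and Naglu, normocapnia (NC) in blue and hypercapnia (HC) in red, with the mean and SD in black and each axis starting at 0. The groups do not overlap for Hexa, Psap, Gusb, Hyal1, Ids and Arsa, and they overlap for Laptm4a, where NC1 at 839 RPM is above HC3 at 755 RPM, and for Naglu.

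Among the 6 genes for glycoproteins and glycogen 0 were called, 5 were higher and 1 was lower, with a median log2 fold change of 0.29. Fuca1, the fucosidase, was at 132, 217 and 138 RPM in normocapnia and at 181, 199, 141 and 144 RPM in hypercapnia, a log2 fold change of 0.052 ± 0.23 (SE). Its highest and lowest libraries were both normocapnic. Man2b1, the lysosomal alpha-mannosidase, was at 97.1, 161 and 31.2 RPM in normocapnia and at 133, 136, 112 and 93.4 RPM in hypercapnia. Its log2 fold change of 0.56 ± 0.57 (SE) became -0.092 without NC3, the library that was low. The sialidase Neu1 (0.42), the amidase Aga (0.38), the glycogen-digesting glucosidase Gaa (0.21) and the mannosidase Manba (-0.13) were not called. Aga became 0.13 without NC3 and 0.73 without NC2, and Neu1 became 0.21 without NC1.

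The 6 genes for lipids and proteins were all higher in hypercapnia and 0 were called, with a median log2 fold change of 0.54. Npc2, which hands cholesterol to Npc1 in the membrane for export, was at 538, 1044 and 626 RPM in normocapnia and at 1426, 1582, 833 and 1032 RPM in hypercapnia. Only NC2 reached the hypercapnia range, and the log2 fold change was 0.74 ± 0.33 (SE; limma adjusted p = 0.915). Npc1 differed by 0.94 ± 0.60 (SE), with 51.9 RPM in NC3 against 161 and 292 RPM in NC1 and NC2 and 212 to 319 RPM in hypercapnia. Without NC3 the difference was 0.26, and without NC2 it was 1.49 and called. Lgmn, an asparagine-specific protease, was at 1185, 2497 and 1794 RPM in normocapnia and at 2881, 3351, 1584 and 1807 RPM in hypercapnia. HC1 and HC2 were above all normocapnia libraries, HC3 and HC4 were not, and the log2 fold change of 0.39 ± 0.38 (SE) became 0.12 without NC1 and 0.65 without NC2. The acid lipase Lipa (0.68), the peptidase Tpp1 (0.34) and the thioesterase Ppt1 (0.040) were not called. Lipa became 0.19 without NC3 and 1.05 without NC2, and Tpp1 became 0.038 without NC1.

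Of the 9 membrane proteins 1 was called, 6 were higher and 3 were lower. Laptm4a, a small protein that spans the membrane of late endosomes and lysosomes, was at 839, 561 and 390 RPM in normocapnia and at 1082, 964, 755 and 1032 RPM in hypercapnia. The groups overlapped, as NC1 was above HC3. The log2 fold change was 0.74 ± 0.29 (SE; limma adjusted p = 0.915), and the call was lost under 9 of 17 alternatives, with a log2 fold change of 0.47 without NC3 and of 0.66 to 0.77 in the other 8, where only the p was over its limit.

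Cd68 and Laptm5 are lysosomal membrane proteins of blood-derived cells, Cd68 being widely used to mark macrophages. Cd68 was at 729, 1357 and 1910 RPM in normocapnia and at 2161, 2185, 1541 and 1656 RPM in hypercapnia, with NC3 between the pairs of hypercapnia libraries, and its log2 fold change of 0.59 ± 0.36 (SE) became 0.21 without NC1 and 0.90, and called, without NC3. Laptm5 was at 1498, 2102 and 7611 RPM in normocapnia and at 2085, 2627, 2031 and 1969 RPM in hypercapnia. NC3 was far above the other 6 libraries, and the log2 fold change of -0.41 ± 0.58 (SE) became 0.29 without it. Cd63, a tetraspanin of lysosomes and secreted vesicles, was at 69.7 RPM in NC3, against 1215 and 834 RPM in NC1 and NC2 and 698 to 1226 RPM in hypercapnia. Its log2 fold change of 1.14 ± 1.05 (SE) became -0.14 without NC3. The coat proteins Lamp1 and Lamp2 differed by 0.28 and -0.017 on the log2 scale, the calcium channel Mcoln1 by 0.41, the receptor Scarb2 by 0.37 and the cystine exporter Ctns by -0.048, and 0 of these were called. Scarb2 was at 12.2 RPM in NC3, its lowest library, and its difference became -0.36 without NC3.

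Marker RNAs of other cell types also differed between the libraries. Beside their calls stand 2.66% called higher and 2.1% lower among the genes at 1 RPM or more. Of the 16 macrophage markers 2 were called higher, Adgre1 and Ms4a7, and the summed level overlapped between the groups. The lowest sum was in NC1, the library that was lowest for 18 lysosomal genes, Idua among them by a tie at 0. The highest sum was in NC3, which was lowest for 13, and Lyz2 alone made 29108 RPM of it. In NC1 and NC2 Lyz2 stood at 8354 and 13313 RPM. Adgre1, C1qb, Trem2 and Cd14 were lowest in NC3 of all 7 libraries, while Tyrobp and Fcgr3 were highest there. The summed level of myofiber markers was highest in NC1 at 6025 RPM and lowest in NC3 at 344 RPM, with 470 to 3055 RPM in hypercapnia, and 0 of 10 were called. Neutrophil markers summed to 377 to 1486 RPM in normocapnia and 263 to 549 RPM in hypercapnia with 1 of 8 called, Mmp8, higher. Endothelial markers summed to 90.2 to 237 and 51.6 to 545 RPM, fibroadipogenic markers to 1510 to 2455 and 1440 to 3469 RPM, lymphocyte markers to 1.51 to 13.7 and 9.31 to 10.8 RPM and the 2 red cell markers to 0.30 to 16.1 and 0.30 to 6.30 RPM in normocapnia and hypercapnia, with 0 called in each list. Each marker in the table had a value above 0 in at least 1 library, although the macrophage marker C1qa stayed at or under 0.452 RPM in all 7. The part of these cells in the lysosomal differences was not tested.

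The rest of the lysosome was read in 6 further lists. Beside their counts and medians stand the genes at 1 RPM or more. Of those, 2.66% were called higher and 2.1% lower, and their median log2 fold change was 0.16. Of 17 other hydrolases 3 were called higher and 0 lower, with a median log2 fold change of 0.48. They were the peptidase Dpp7 (1.30 ± 0.36, SE; limma adjusted p = 0.877), the carboxypeptidase Scpep1 (0.76 ± 0.26, SE; limma adjusted p = 0.915) and the acid phosphatase Acp5 (1.26 ± 0.50, SE; limma adjusted p = 0.915). Of 13 cathepsins, the lysosomal proteases, 2 were called higher and 0 lower, with a median of 0.34.

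The called cathepsins were Ctsd and Ctsb, an aspartic and a cysteine protease. Ctsd stood at 3006, 5772 and 2100 RPM in normocapnia and between 9468 and 17379 RPM in hypercapnia, a log2 fold change of 1.98 ± 0.41 (SE; limma adjusted p = 0.712). Ctsb stood at 3547, 5768 and 2030 RPM and between 7799 and 12103 RPM, a log2 fold change of 1.49 ± 0.39 (SE; limma adjusted p = 0.836). In both, NC2 was the highest and NC3 the lowest normocapnia library, the order that Psap and Gusb also had.

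Of 16 measured subunits and partners of the V-ATPase, the pump that acidifies the lumen, 4 were called higher and 0 lower, and the median log2 fold change was 0.44. Those with the lowest p were Atp6v1a (0.63 ± 0.17, SE; limma adjusted p = 0.877), Atp6v0b (0.90 ± 0.26, SE; limma adjusted p = 0.909) and Atp6ap1 (0.75 ± 0.28, SE; limma adjusted p = 0.915). Of 14 genes for the mannose 6-phosphate tag and its sorting 1 was called, Gga2 (1.24 ± 0.42, SE; limma adjusted p = 0.915), an adaptor that carries the tagged enzymes from the Golgi, and the median was 0.24. Of 20 other membrane proteins 1 was called higher, the nucleoside exporter Slc29a3 (0.65 ± 0.24, SE; limma adjusted p = 0.915), and with 10 higher and 10 lower the median was 0.010. Of 10 genes that regulate the response through TFEB and its relatives 0 were called, 3 were higher and 7 lower, with a median of -0.20. Tfeb itself was at 45.6, 89.3 and 111 RPM in normocapnia and between 51.5 and 66.2 RPM in hypercapnia, a log2 fold change of -0.38 ± 0.31 (SE). The level of these mRNAs says nothing of where the proteins were in the cell, by which TFEB is mainly regulated.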

How the data were processed

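The authors made the libraries with the Ion AmpliSeq panel for the mouse transcriptome, read them on the Ion S5 and deposited 1 table of RPM per gene, that is, reads scaled to a common library total. They compared groups in the Transcriptome Analysis Console. The genome build and the aligner: not given in the sources used here. Whole reads were recovered from the RPM steps (100% of values whole within 0.05 reads) and totalled 14527445 to 23388710 per library. Reads are not independent molecules, so the value of 3 reads covers counting error only. Differences were tested with limma 3.58.1 under R 4.3.3 on the scale log2(RPM + 1), which understates the change of low genes. All 23930 genes were entered, with no filter. Calls used an unadjusted p under 0.05 and a fold above 1.5. Alternatives were pseudocounts of 0.1 and 5 RPM, a minimum mean of 1 RPM, quantile normalization, median-of-ratios scaling, edgeR 4.0.16, DESeq2 1.42.0, each library left out, a replicate block and Xist as a covariate. The group comparisons by limma, edgeR and DESeq2 were also run on simulated data. There the libraries were independent and the changes larger than the fold limit, so calls near that limit or under the splits seen here were not tested. Members and gene lists were chosen with earlier results of these data known. Named with a value in every library were genes called, genes with groups apart and the 2 with the highest mean RPM in each role; Npc1, Naglu, Asah1, Cd63, Tfeb and the cathepsins' values were added after values were seen. Promoters came from RefSeq (GRCm38.p6). Chi-square per degree of freedom was 24.6 between HC1 and HC2 and 27.3 between HC3 and HC4, against at least 104.6 in any other pair. All exceed counting noise, which does not show that the libraries are separate animals, and each was counted as a sample because the labels list it as one.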

Additional observations from a re-analysis of the deposited data

Results flagged for a closer look

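For 5 genes both hypercapnia libraries with Xist lay above both normocapnia libraries with Xist, while both hypercapnia libraries without Xist lay below NC3. The log2 difference between hypercapnia and normocapnia was greater with Xist than without it by 1.44 for Glb1, 1.76 for Galc, 0.78 for Ppt1, 1.39 for Tpp1 and 1.38 for Cd68. The difference was not tested, the classes come from the data and not from the labels, and the class without Xist has 1 normocapnia library. In the 36 lysosomal genes at 1 RPM or more, 0 had a hypercapnia library far from the other 3 by Dixon's criterion, which chance alone meets in about 1 in 20 groups. Groups of 3 were not examined.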

How the results depend on the processing

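The median log2 fold change of the 37 genes was positive under all 17 alternatives, from 0.13 (DESeq2) to 0.65 (without NC2). Without NC1, however, it was 0.21, below the 0.36 of all genes at 1 RPM or more. The number called higher, 5, became 3 by edgeR with or without a filter, 10 with Xist as a covariate, and 4 to 9 with a library left out (9 without NC2). The number called lower, 1, became 0 under median-of-ratios scaling and with the replicate block, and 0 to 1 with a library left out (0 without NC3). Genes with groups apart, 6, numbered 6 to 14 with a library left out (12 without NC1, 14 without NC2). A smaller group is more easily apart from the other for any gene. The share over all genes was not counted with a library left out, so these numbers have no background. Over all genes 615 were called, against 1049 by edgeR without a filter, 1304 by DESeq2, 1316 with Xist as a covariate, and 376 to 1990 with a library left out (1990 without NC1, 1205 without NC2, 385 without HC1, 376 without HC2). The share of these calls that was higher in hypercapnia was 55.8% on RPM, 51.5% under median-of-ratios scaling, 48.5% under quantile normalization, 36.7% and 38.8% by edgeR with and without a filter, 39.8% by DESeq2, 75.1% without NC1 (1495 higher and 495 lower) and 38.1% without NC3 (235 and 381). Of the called genes, Ids became -0.82 under median-of-ratios scaling and -0.66 with the block and -0.80 to -0.43 with a library left out, Psap 0.83 by edgeR, and Laptm4a 0.47 to 1.02 with a library left out. Another 9 genes were called only under some alternative. With a library left out the genes so called were Smpd1 (0.94) without NC1, Arsa (0.66), Naglu (1.41), Neu1 (0.66), Npc1 (1.49) and Npc2 (1.02) without NC2, Glb1 (0.68) and Cd68 (0.90) without NC3, Npc2 (0.91) without HC3 and Naglu (1.29) without HC4. The causes were not tested.

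Direction changed somewhere for 15 of the 37 genes, none of them called. Under median-of-ratios scaling the log2 fold change was -0.010 for Galc, -0.091 for Fuca1 and -0.10 for Ppt1. By edgeR with a filter these were -0.11, -0.088 and -0.043, without a filter -0.059, -0.072 and -0.014, and by DESeq2 -0.16, -0.13 and -0.086. Quantile normalization gave -0.0086 for Aga and 0.044 for Lamp2, the block 0.074 for Gm2a and 0.13 for Lamp2, and Xist as a covariate 0.059 for Lamp2. With a library left out the ranges were -0.40 to 0.088 for Gm2a, -0.039 to 0.69 for Gla, -0.062 to 0.46 for Galc, -0.80 to 0.036 for Asah1, -0.025 to 0.46 for Arsb, -0.34 to 0.093 for Manba, -0.092 to 1.07 for Man2b1, -0.077 to 0.28 for Fuca1, -0.10 to 0.20 for Ppt1, -0.26 to 0.21 for Lamp2, -0.14 to 1.92 for Cd63, -0.36 to 0.80 for Scarb2, -0.89 to 0.29 for Laptm5 and -0.27 to 0.091 for Ctns. For genes that kept their direction they were 0.10 to 0.68 for Glb1, 0.24 to 0.94 for Smpd1, 0.39 to 0.66 for Arsa, 0.016 to 0.30 for Sgsh, 0.82 to 1.41 for Naglu, 0.13 to 0.73 for Aga, 0.21 to 0.66 for Neu1, 0.13 to 0.29 for Gaa, 0.19 to 1.05 for Lipa, 0.26 to 1.49 for Npc1, 0.55 to 1.02 for Npc2, 0.038 to 0.55 for Tpp1, 0.12 to 0.65 for Lgmn, 0.17 to 0.41 for Lamp1, 0.21 to 0.90 for Cd68, 0.24 to 0.50 for Mcoln1, 0.91 to 1.15 for Hexa, 0.72 to 1.22 for Psap, 0.73 to 1.21 for Gusb and 1.25 to 1.86 for Hyal1. Idua had no value under the filters. Whether the replicate numbers pair the libraries was not settled. Deviations from the group means correlated by -0.35, 0.50 and -0.044 for numbers 1 to 3, and by -0.42 to 0.45 for unlike numbers. The deviations of a group sum to 0 and carry the splits within it, so these values cannot decide the question. With the number as a block 7 genes were called higher and 0 lower.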
